A study of Mus musculus with 25 samples.

Results

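The cell division genes are 40 mouse genes, chosen by name, whose products run or restrain the division of a cell. They fall into 6 roles: 8 cyclins, kinases and an inhibitor of the G1 phase, 10 genes of DNA replication and nucleotide supply, 8 mitotic cyclins and kinases, 4 genes of the spindle checkpoint and anaphase promotion, 7 of the spindle and kinetochore, and 3 of chromosome structure. Of the 12454 genes listed in any of the 4 deposited tables, 33 are members, and 9 members are in all 4 tables. The remaining 7, Cdk6, Aurkb, Birc5, Bub1, Cenpe, Kif11 and Kif23, are in none.

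The data are counts of ribosome-associated mRNA from 25 libraries of thoracic spinal cord, each from 1 mouse. All mice carried Gfap-Cre and a floxed Ribotag allele, which puts a haemagglutinin tag on ribosomes of cells that express the Cre, so the RNA of any such cell is captured with that of astrocytes. The challenged groups were WT mice (GfapCre:Ribotagfl/fll, strain C57BL6) given LPS (4 libraries), Stat3cKO mice (GfapCre:Ribotagfl/fl:Stat3fl/fl, strain C57BL6) given LPS (4), Smarca4cKO mice (GfapCre:Ribotagfl/fl:Smarca4fl/fl, strain C57BL6;129S2) given LPS (3), and Smarca4cKO mice with a crush spinal cord injury (SCI) at T10 (4). LPS, a bacterial lipopolysaccharide that provokes systemic inflammation, was given intraperitoneally at 5 mg/kg, 24 hours before tissue was taken. SCI tissue was taken at 14 days, as a 3 mm block around the crush site that includes the lesion core. The controls were uninjured WT (4), Stat3cKO (3) and Smarca4cKO (3) mice. SCI libraries of WT or Stat3cKO mice were not analysed here, so whether the injury response depends on genotype was not tested, and the strain of the Smarca4cKO mice differs from that of the other genotypes.

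Dividing cells pass from G1, where D-type cyclins with Cdk4 or Cdk6 promote entry into the cycle, through S phase, where DNA is copied, to mitosis, which cyclin B with Cdk1 drives and the anaphase-promoting complex ends. Many mitotic genes are silenced in resting cells by repressor complexes and read out late in the cycle from promoters that hold CCAAT boxes and an element called the cell cycle homology region. Adult spinal cord astrocytes rarely divide in the healthy animal, and some near a lesion re-enter the cycle.

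Promoters are shown for 5 genes that had 162 or more counts in every library after SCI but at most 1 count in all uninjured Smarca4cKO libraries together (Cdk1, Ccnb2, Cdc20, Ube2c and Top2a), and for Cdk4, which was read in every library. Each run is the 250 bases before the RefSeq gene start (GRCm38.p6), 5′ to 3′ on the gene's strand. Capitals mark CCAAT, the cell cycle homology letters TTTGAA and the E2F-type letters TTTGGCGC, TTTCGCGC and TTTCCCGC, each on either strand. The 50 bases after the start were searched too and are not shown. The runs are examples. Other genes met the same rule on counts, among them Nusap1, with no match, and Mcm6, with CCAAT but no TTTGAA. Cdkn1b and Pcna were also read in every library, and both hold CCAAT.
Cdk1, chr10:69352913-69353162, minus strand: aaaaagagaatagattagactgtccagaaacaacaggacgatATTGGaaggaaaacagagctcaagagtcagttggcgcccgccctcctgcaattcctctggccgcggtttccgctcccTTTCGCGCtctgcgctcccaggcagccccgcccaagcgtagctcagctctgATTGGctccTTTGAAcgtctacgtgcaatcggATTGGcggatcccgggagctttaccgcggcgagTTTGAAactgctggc
Ccnb2, chr9:70421555-70421804, minus strand: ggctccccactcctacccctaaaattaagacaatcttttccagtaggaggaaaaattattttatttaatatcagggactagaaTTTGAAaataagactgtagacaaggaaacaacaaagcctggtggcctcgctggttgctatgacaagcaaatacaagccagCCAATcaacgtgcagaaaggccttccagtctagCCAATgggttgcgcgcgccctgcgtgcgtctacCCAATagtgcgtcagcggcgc
Cdc20, chr4:118437344-118437593, minus strand: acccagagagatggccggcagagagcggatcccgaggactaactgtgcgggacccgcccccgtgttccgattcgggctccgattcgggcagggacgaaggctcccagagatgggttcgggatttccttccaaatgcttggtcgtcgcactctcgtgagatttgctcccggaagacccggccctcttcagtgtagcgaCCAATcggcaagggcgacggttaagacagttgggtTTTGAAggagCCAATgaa
Ube2c, chr2:164769679-164769928, plus strand: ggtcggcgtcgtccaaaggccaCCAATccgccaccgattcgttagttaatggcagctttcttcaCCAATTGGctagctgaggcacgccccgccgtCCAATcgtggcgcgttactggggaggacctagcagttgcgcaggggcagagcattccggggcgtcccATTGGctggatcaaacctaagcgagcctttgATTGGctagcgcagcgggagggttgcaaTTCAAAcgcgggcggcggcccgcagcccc
Top2a, chr11:99024190-99024439, minus strand: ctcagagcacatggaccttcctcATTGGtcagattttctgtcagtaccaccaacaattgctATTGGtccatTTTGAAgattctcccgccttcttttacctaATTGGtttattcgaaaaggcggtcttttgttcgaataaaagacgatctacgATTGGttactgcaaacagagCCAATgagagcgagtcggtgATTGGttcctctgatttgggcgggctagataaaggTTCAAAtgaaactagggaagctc
Cdk4, chr10:127063285-127063534, plus strand: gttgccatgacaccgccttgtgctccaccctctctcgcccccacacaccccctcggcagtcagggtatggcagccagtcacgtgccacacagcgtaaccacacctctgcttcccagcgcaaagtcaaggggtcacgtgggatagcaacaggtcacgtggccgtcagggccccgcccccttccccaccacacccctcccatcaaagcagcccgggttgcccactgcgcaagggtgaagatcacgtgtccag

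Promoter windows of 300 bases, 250 before to 50 after the start, were at hand for 34 of the 40 members. CCAAT was found in 28 of the 34 windows (82.4%), against 41.1% of 27025 genes with a window. TTTGAA was found in 15 (44.1%), against 20.2% of all genes, and an E2F-type run in 6 (17.6%), against 2.12%. Among the 14 members near 0 counts in uninjured Smarca4cKO astrocytes, CCAAT was found in 13 (92.9%), at least 2 CCAAT in 10 (71.4%) and TTTGAA in 11 (78.6%). Of the other 20 members with a window, 8 are not in the SCI table, so whether they were near 0 is unknown. Among the remaining 12 the shares were 83.3%, 50% and 16.7%. The 14 were picked by their counts and are mitotic genes apart from Mcm6. The 12 are G1 and replication genes apart from Hmgb2. The 2 sets therefore differ in role as well as in counts, and a link of the letters with counts was not tested. Kif11 and Kif23, spindle genes in no table, hold TTTGAA too. Top2a and Ube2c had 6 CCAAT each, of which a pair in Ube2c shares letters, and Nusap1 had no match to any of the letters. In Mcm5 and Mcm6, a pair of E2F-type runs on opposite strands overlap each other. Matches are letters only, and no binding was measured.

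Library totals over listed genes ran from 52433934 to 106513035 counts. In the SCI table, at most 1.04% of listed genes had 10 counts or fewer in any SCI library, against 17.8%, 25.7% and 21.2% in the uninjured Smarca4cKO libraries 1, 2 and 3. Smarca4cKO LPS libraries 1 and 2 had 12.2% and 14.9% such genes in their own table, and library 3 had 1.35%. The deleted genes were checked first. Stat3 stood at 85.0 to 297 CPM, that is counts scaled by library total with the TMM factor, in the 4 libraries labelled Stat3cKO LPS, against 7.89 to 19.8 CPM in uninjured Stat3cKO libraries, so the LPS libraries overlapped those of WT LPS, at 163 to 469 CPM, and of uninjured WT, at 94.4 to 142 CPM. Smarca4 stood at 0.0175, 50.9 and 5.998 CPM in the libraries labelled Smarca4cKO LPS, at 12.2 to 22.6 CPM after SCI, at 13.5 to 24.2 CPM in uninjured Smarca4cKO mice, and at 59.4 to 114 CPM in WT libraries. Library 2 labelled Smarca4cKO LPS therefore lay between the other libraries of its genotype and WT. A count per gene leaves unknown whether the deleted exons were among those read.

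The authors' tables list different members. The WT table lists 14 of 40 and lacks the 7 named above, Mcm6, Rrm2, Tyms, Hmgb2, Aurka, Prc1 and all 13 members found in the SCI table alone. The Stat3cKO table lists 19: it lacks the same 7, Ccne1 and the members found in the SCI table alone, and holds Mcm6, Rrm2, Tyms, Hmgb2, Aurka and Prc1. The Smarca4cKO LPS table lists the 9 that all tables share and lacks the other 31. The 9 are Ccnd1, Ccnd2, Ccnd3, Cdk4, Cdkn1b, Mcm3, Mcm4, Pcna and Rrm1. The Smarca4cKO SCI table lists 31, all but the 7, Ccne1 and Cdk2. It alone holds 13 members (41.9% of its 31, against 4.35% of all its genes): Top2a, Cdk1, Cdc20, Cenpf, Plk1, Mki67, Nusap1, Ube2c, Ccnb1, Bub1b, Ccnb2, Ccna2 and Mcm5. A gene missing from a table has no value here, so its level in those libraries is unknown. Members listed only through the SCI libraries had to differ from uninjured, and their number is a description of the tables.

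**Figure D1:**
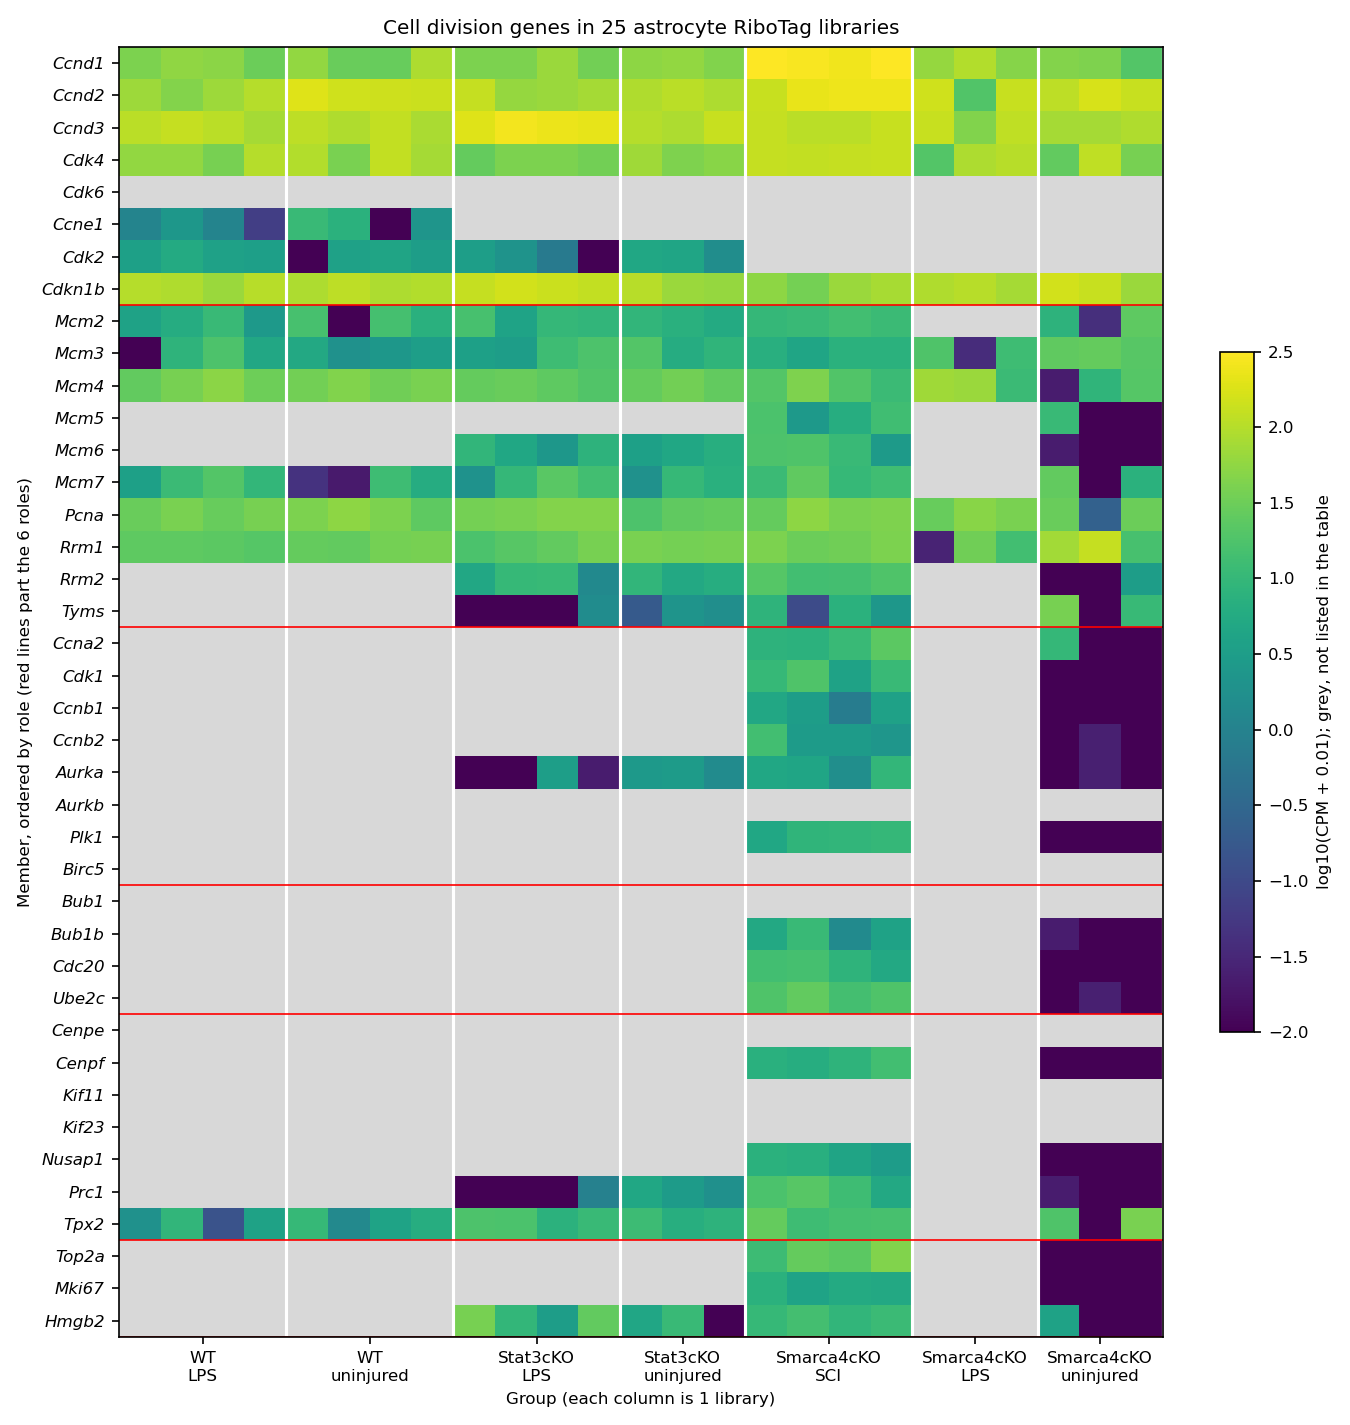
Level of each of the 40 members (rows, by role) in each of the 25 libraries (columns, by group), as log10 of CPM plus 0.01, with grey where a table does not list the gene; CPM were scaled within each table. G1 and replication genes are filled in most groups, and 13 of the mitotic rows are filled in the SCI libraries and dark, at 0 or 1 count, in each uninjured Smarca4cKO library. Ccna2, Tpx2 and Hmgb2 are read in some of those uninjured libraries, and Aurkb, Birc5, Bub1, Cenpe, Kif11 and Kif23 are grey throughout.

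In Smarca4cKO astrocytes 14 days after crush injury, 15 of the 31 listed members were higher than in uninjured mice of that genotype and 0 were lower, at an adjusted p under 0.05 (edgeR quasi-likelihood test, Benjamini-Hochberg). Of all genes tested, 10.1% were called higher and 4.31% lower. The counts cannot be read against these shares, since 14 of the 15 had at most 1 count in uninjured mice and so entered the table only through the SCI libraries. Of the 8 members with over 10 counts in every library, a fit of such genes alone called Ccnd1 higher and Mcm3 lower. That fit called 381 of its 6704 genes higher and 396 lower. The 15 were cyclin D1, the helicase subunit Mcm6, and 13 genes of mitosis. The authors' deposited table calls the same 15 higher and 0 lower. Fewer cells of a type and less RNA per cell cannot be told apart in such bulk samples.

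Among the mitotic kinases and cyclins, Cdk1, the kinase that starts mitosis, had 1124, 1334, 320 and 797 counts in the 4 SCI libraries, against 0 in each of the 3 uninjured libraries. Its rate was at least 798-fold higher after SCI, taken against 3 counts over the uninjured group, with an adjusted p of 0.00713. The bound covers counting error only. Cdk1 and the other called members at 0 or 1 count uninjured were listed only through the SCI libraries. Their p-values and folds therefore describe a difference that listing required, and are not independent support. Every SCI library held Cdk1 reads and no uninjured library did. Ccnb1, a cyclin that activates Cdk1, had 557, 236, 63 and 273 counts after SCI, against 0 in each uninjured library. It was at least 252-fold higher (adjusted p = 0.00652), and SCI library 3 was the lowest. Ccnb2, its sister cyclin, had 1524, 217, 242 and 162 counts after SCI, against 0, 1 and 0 in uninjured libraries. The ratio of rates was 1437, with a 95% Clopper-Pearson interval of 258 to 56770 that covers counting error only, and the adjusted p was 0.00908. SCI library 1 held most of the Ccnb2 reads.

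Plk1, a kinase of centrosome maturation and mitotic exit, had 528, 634, 748 and 716 counts after SCI, against 0 in each uninjured library. Between SCI libraries it varied by 2.075-fold in CPM. It was at least 586-fold higher (adjusted p = 0.00652). Aurka, the spindle pole kinase, had 531, 318, 138 and 677 counts after SCI, against 0, 1 and 0 in uninjured libraries, a ratio of 1114 (interval 200 to 44040, adjusted p = 0.00712). The groups did not overlap for either kinase. Ccna2, the cyclin of S phase and early mitosis, had 901, 579, 917 and 1664 counts after SCI, against 832, 0 and 0 in uninjured libraries. Its groups overlapped and it did not pass the test (adjusted p = 0.820). Without uninjured library 1, which held all its uninjured reads, its adjusted p was 0.00663. That value rests on 0 counts in the remaining controls and adds no support.

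The genes that end mitosis behaved alike. Cdc20, which switches on the anaphase-promoting complex, had 1519, 1087, 702 and 375 counts after SCI, against 0 in each uninjured library, and was at least 822-fold higher (adjusted p = 0.00654). Ube2c, the ubiquitin-conjugating enzyme of that complex, had 1975, 1905, 1193 and 1293 counts, against 0, 1 and 0 in uninjured libraries. Its ratio was 4264 (interval 765 to 168400, adjusted p = 0.00652). Bub1b, a checkpoint component that holds Cdc20 back, had 566, 833, 119 and 285 counts, against 1, 0 and 0 in uninjured libraries, a ratio of 1208 (interval 217 to 47720, adjusted p = 0.00699). All SCI libraries stood above all uninjured libraries for the 3 genes, and Bub1b varied the most between SCI libraries, by 7.94-fold in CPM.

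Of the spindle and kinetochore genes, Cenpf, a kinetochore protein, had 793, 473, 706 and 964 counts after SCI, against 0 in each uninjured library, and was at least 656-fold higher (adjusted p = 0.00652). Nusap1, a spindle microtubule protein, had 822, 508, 352 and 219 counts, against 0 in each uninjured library, and was at least 424-fold higher (adjusted p = 0.00652). Prc1, which bundles microtubules of the spindle midzone, had 1815, 1560, 1047 and 370 counts, against 1, 0 and 0 in uninjured libraries, a ratio of 3209 (interval 576 to 126800, adjusted p = 0.00652). For these 3 genes the groups did not overlap. Tpx2, a spindle assembly factor that activates Aurora A, went another way, with 3001, 943, 1230 and 1120 counts after SCI, against 1545, 0 and 3033 in uninjured libraries. It did not pass the test (adjusted p = 0.989), and uninjured library 3 exceeded every SCI library.

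Top2a, the topoisomerase that untangles sister chromosomes, had the most CPM of the 13 mitotic genes called. It had 1326, 2029, 1965 and 3200 counts after SCI, against 0 in each uninjured library, and was at least 1902-fold higher (adjusted p = 0.00652). Mki67, the gene of the proliferation marker Ki-67, had 819, 297, 472 and 375 counts, against 0 in each uninjured library, and was at least 438-fold higher (adjusted p = 0.00652). Neither gene was read in any uninjured library. Hmgb2, a chromatin protein, had 1114, 1033, 774 and 839 counts after SCI, against 330, 0 and 0 in uninjured libraries. The groups did not overlap, yet it did not pass the test (adjusted p = 0.591), and its adjusted p was 0.00656 without uninjured library 1. All uninjured Hmgb2 reads were in that library, so leaving it out sets the gene against 0 counts and adds no support.

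**Figure D2:**
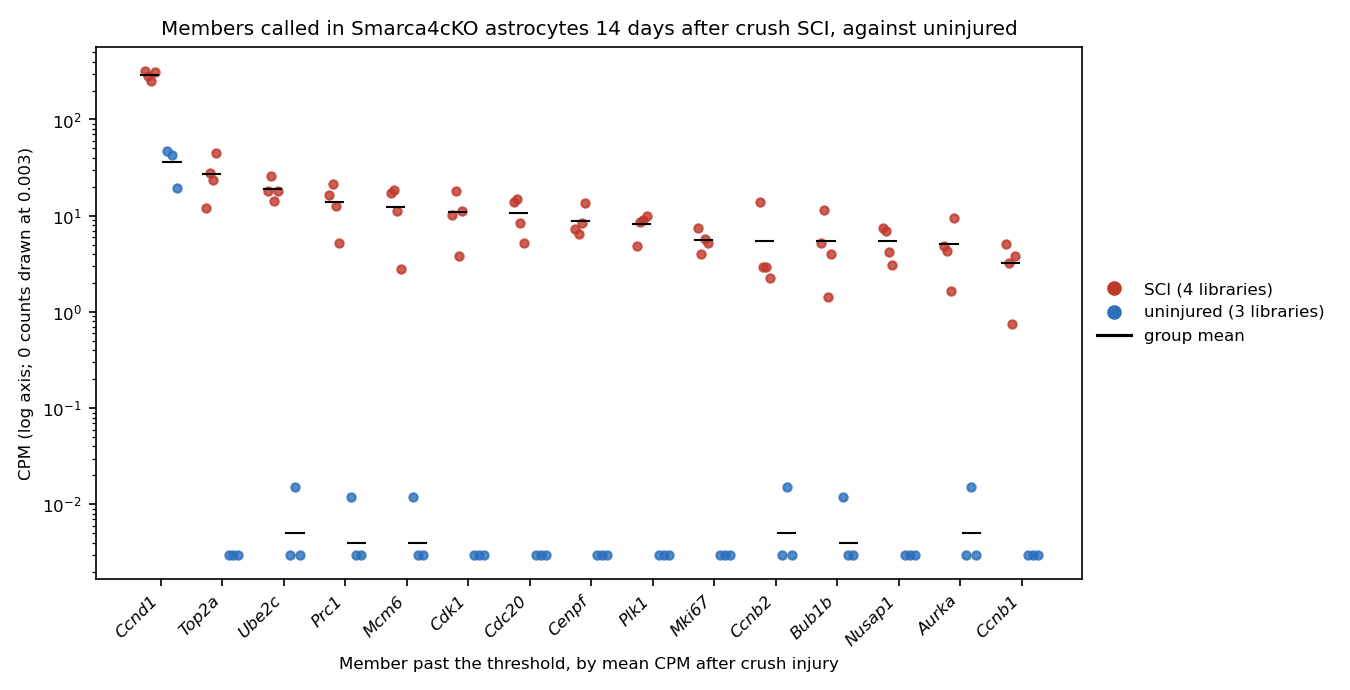
CPM of the 15 members past the threshold in Smarca4cKO astrocytes, per library, for SCI (left of each pair) and uninjured (right), on a log axis with 0 counts drawn at 0.003 and black bars for group means. Cyclin D1 sits at 252 to 318 CPM after SCI and 19.4 to 47.0 CPM uninjured, and the other 14 members sit at 0 or 1 count in every uninjured library.

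In all, 14 members had over 10 counts in every SCI library and 10 or fewer in every uninjured Smarca4cKO library, which is 45.2% of the 31 listed, against 7.32% of all genes in that table. These 14 entered the table only through the SCI libraries, so their share cannot be read against that of all genes. Their counts summed to 15796, 12785, 8993 and 9905 in SCI libraries 1 to 4 (144, 174, 108 and 138 CPM), against 3, 3 and 0 in uninjured libraries 1 to 3. The summed level thus varied by less than a factor of 2 between injured animals, while single genes varied more: SCI library 1 was the highest for 4 genes, library 2 for 6, library 4 for 4, and library 3 for none. Groups did not overlap for 19 of the 31 members on the higher side, against 18.3% of all genes, and for 1 on the lower side, against 10.2%. The 19 include the 14, so this share too cannot be read against that of all genes.

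Of these 14 genes, Mcm6, Aurka and Prc1 are also listed in the Stat3cKO table. Uninjured Stat3cKO libraries held 298 to 617 counts of Mcm6, 138 to 221 of Aurka and 167 to 402 of Prc1, so reads of these 3 genes were present in uninjured astrocyte libraries of that genotype. The 3 are not in the WT table. The other 11 have no values outside the SCI table.

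Per kilobase of exon, levels differed widely among members after SCI. The mean RPKM (CPM divided by exon length in kilobases) was 61.7 for Ccnd1, 39.1 for Cdk4, 22.2 for Ccnd2 and 17.1 for Pcna. Of the mitotic genes called, Ube2c was highest at 7.34 RPKM, followed by Cdc20 at 5.67, Plk1 at 3.69, Ccnb2 at 3.60 and Top2a at 3.00. Cenpf and Mki67, both with long transcripts, were lowest at 0.577 and 0.557 RPKM.

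In the G1 group, Ccnd1, which encodes cyclin D1, was the 1 member of 5 listed that passed the test. It lies at chr7:144929931-144939925 (GRCm38, minus strand). It had 34853, 20594, 20965 and 22302 counts after SCI, against 3932, 2790 and 1489 in uninjured libraries. It averaged 290 ± 30.2 CPM after SCI (SD, n = 4) and 36.3 ± 14.8 CPM in uninjured mice (SD, n = 3), a log2 change of 3.00 ± 0.32 (SE, edgeR adjusted p = 0.00263). Every SCI library was more than 5 times the highest uninjured library in CPM.

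Cdk4, the kinase partner of the D cyclins, averaged 127 ± 3.62 CPM after SCI (SD, n = 4) and 59.6 ± 48.7 CPM in uninjured mice (SD, n = 3), with an edgeR adjusted p of 0.235. The groups did not overlap, but the lowest SCI library, at 122 CPM, was close to uninjured library 2, at 116 CPM, and without the uninjured library 2 the adjusted p was 0.00500. Ccnd3, cyclin D3, averaged 120 ± 13.1 CPM after SCI and 82.8 ± 8.93 CPM in uninjured mice, a log2 change of 0.54 ± 0.19 (adjusted p = 0.120), without overlap. Ccnd2, cyclin D2, averaged 209 ± 51.5 CPM after SCI and 137 ± 28.4 CPM in uninjured mice (log2 change 0.61 ± 0.25, adjusted p = 0.200), with overlap, and its adjusted p was 0.0346 without SCI library 1. Cdkn1b, which encodes the cyclin-kinase inhibitor p27, averaged 59.5 ± 19.0 CPM after SCI and 118 ± 47.2 CPM in uninjured mice (log2 change -0.99 ± 0.38, adjusted p = 0.157). The SCI libraries, at 2670 to 5931 counts, overlapped uninjured library 3, at 5013 counts, and the adjusted p was 0.0366 without that uninjured library. For Cdk4, Ccnd2 and Cdkn1b these values come from leaving out the library nearest the other group, and add no support. With other libraries left out in turn, the edgeR adjusted p reached 0.395 for Cdk4, 0.367 for Ccnd2 and 0.324 for Cdkn1b.

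The 10 replication genes were all listed after SCI, and 1 was called. Mcm6, a subunit of the hexameric replicative helicase, had 1897, 1354, 926 and 199 counts after SCI, against 1, 0 and 0 in uninjured libraries, a ratio of 2931 (interval 526 to 115800, adjusted p = 0.00720). Of the other subunits, Mcm3 was lower in every SCI library, at 746, 325, 632 and 529 counts, than in any uninjured library, at 2094, 1809 and 1616 counts. It averaged 6.55 ± 1.45 CPM after SCI and 24.5 ± 3.24 CPM in uninjured mice, and the log2 change of -1.90 ± 0.79 missed the threshold (adjusted p = 0.200). DESeq2 placed it past the threshold, at an adjusted p of 0.00213.

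Mcm2, Mcm4, Mcm5 and Mcm7 each had at least 196 counts in every SCI library and 0 to 2 counts in at least 1 uninjured library, while their highest uninjured library held 932 to 2158 counts. None of the 4 passed, with adjusted p from 0.831 to 0.989. Mcm5, with 932, 0 and 0 counts in uninjured libraries, reached 0.00813 without uninjured library 1, which held all its uninjured reads. That value rests on 0 counts in the remaining controls and adds no support. Pcna, the sliding clamp of DNA polymerase, averaged 41.1 ± 11.3 CPM after SCI and 20.2 ± 17.3 CPM in uninjured mice (adjusted p = 0.794), with 16 counts in uninjured library 2. Rrm1 and Rrm2 are the subunits of ribonucleotide reductase, which makes deoxynucleotides. Rrm2 had 2301, 1007, 1197 and 1327 counts after SCI, against 0, 0 and 244 in uninjured libraries, and did not pass (adjusted p = 0.442, or 0.00744 without uninjured library 3). The latter value rests on 0 Rrm2 counts in the remaining controls and adds no support. Rrm1 averaged 36.5 ± 5.34 CPM after SCI and 72.6 ± 56.2 CPM in uninjured mice (adjusted p = 0.456). Without uninjured library 3, Rrm1 passed as lower after SCI (log2 change -1.47, adjusted p = 0.0221). That value comes from leaving out the uninjured library that lay below every SCI library, and adds no support. With other libraries left out in turn, the edgeR adjusted p of Rrm1 reached 0.843. Tyms, thymidylate synthase, had 909, 7, 623 and 174 counts after SCI, against 3152, 0 and 810 in uninjured libraries (adjusted p = 0.794).

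Detection was uneven among the uninjured libraries. Among the SCI libraries, 1 member, Tyms, had over 10 counts in some and 10 or fewer in others, as did 1.7% of all genes in the table. Among the uninjured libraries the same mixture was seen for 9 members (29% of the 31) and for 31% of all genes, a share near that of the members. The other 7 uncalled members had over 10 counts in every library. In uninjured libraries 1, 2 and 3, 12, 18 and 17 of the 31 members had 0 counts. Its part in the results was not tested.

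**Figure D3:**
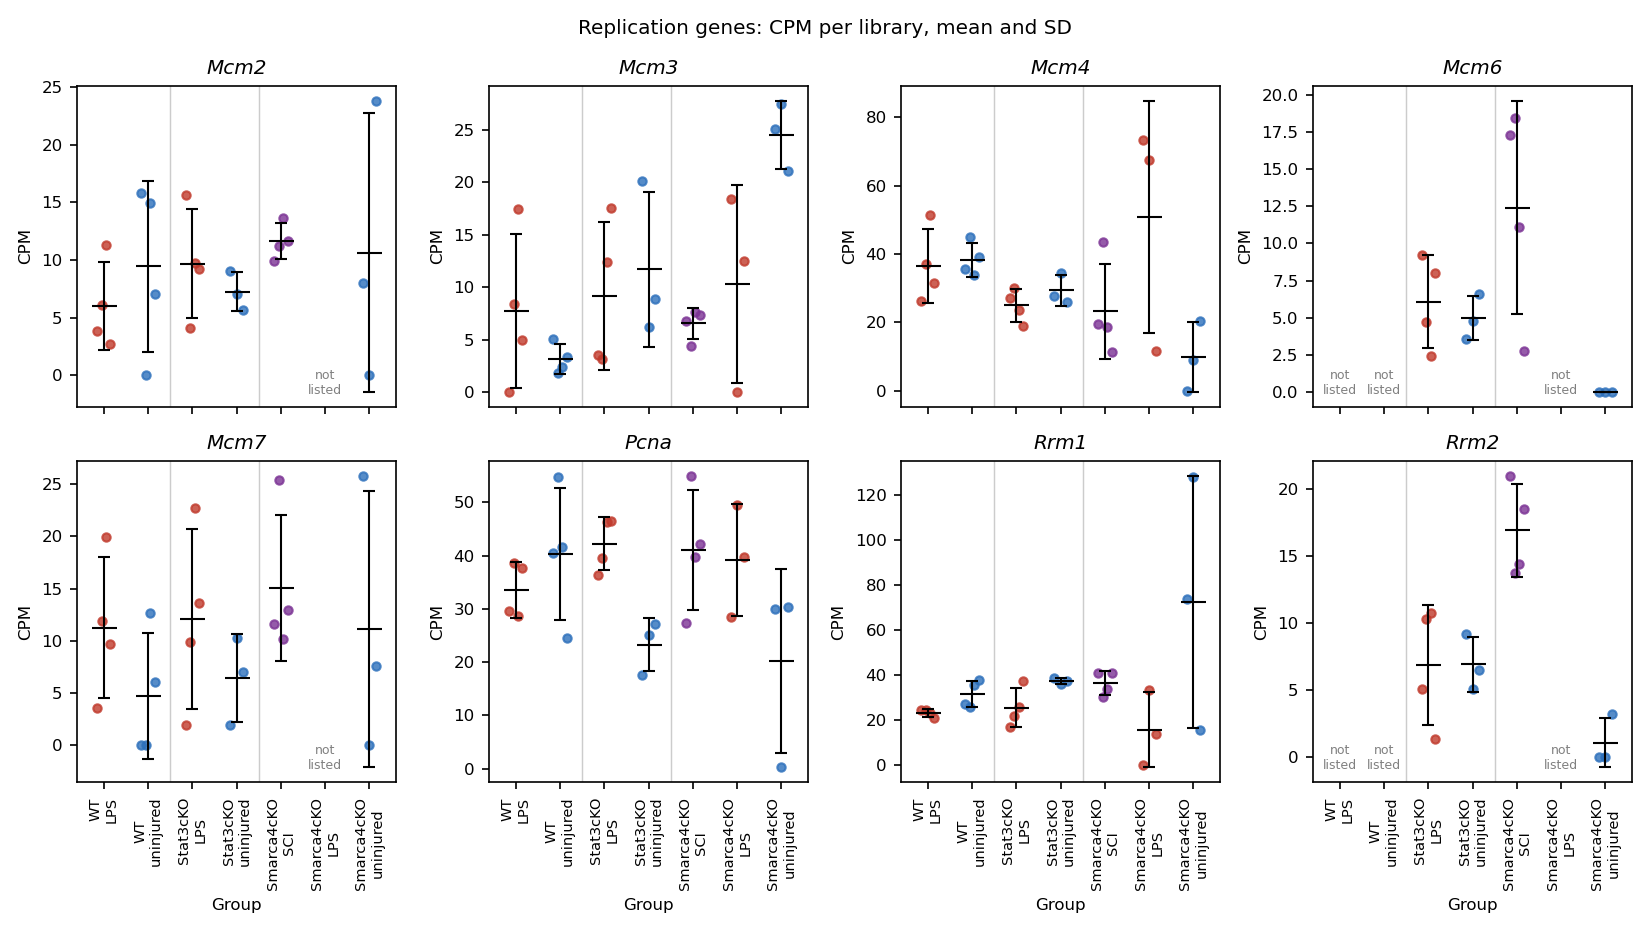
CPM of 8 replication genes per library in the 7 groups, with mean and SD as black bars; purple is SCI, red LPS and blue uninjured, and CPM were scaled within each table. Uninjured Smarca4cKO libraries scatter between 0 and the highest values of a panel for Mcm2, Mcm7 and Rrm1, and Mcm6 is at 0 or 1 count there.

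Other genes of the cell cycle were examined for SCI against uninjured. Of 39 other S phase genes, 18 were tested, 5 rose and 0 fell. Uhrf1, which maintains DNA methylation, was at least 836-fold higher, Rad51ap1, a recombination factor, at least 354-fold, and Wdr76 at least 312-fold, each with 0 counts in all uninjured libraries. Of 45 other G2 and M phase genes, 28 were tested, 14 rose and 1 fell. Ckap2, Mad2l1 and Nuf2, proteins of the spindle, its checkpoint and the kinetochore, were at least 1488-fold, 1037-fold and 1004-fold higher, again with 0 counts in uninjured libraries. Apart from Anln, with 6550 uninjured counts, each gene of these lists that rose had 0 or 1 counts over the uninjured libraries. Such genes were listed only through the SCI libraries. Their number cannot be read against the shares of all genes, 10.1% higher and 4.31% lower. Ckap5, a microtubule polymerase that resting cells also use, fell to 180 ± 16.5 CPM after SCI (SD, n = 4), against 332 ± 25.2 CPM in uninjured mice (SD, n = 3; edgeR adjusted p = 0.00652).

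Of 30 regulators of the cycle, 23 were tested, 4 rose and 0 fell. The 4 had at most 5 counts over the uninjured libraries, so they too were listed only through the SCI libraries. Cdkn2b, the inhibitor p15 of Cdk4 and Cdk6, was at least 876-fold higher, at 377 to 2078 counts per SCI library, against 0 in uninjured libraries. E2f8, a repressor of E2F targets, was at least 519-fold higher. Lin9, a core subunit of the complexes that regulate mitotic genes, had 268 to 777 counts per SCI library, against 2 counts over the uninjured libraries, a ratio of 589 (interval 163 to 4870).

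Markers of other cell types were measured in the same libraries. Of all genes, 10.1% were called higher and 4.31% lower. Summed over 8 oligodendrocyte markers, 4 of them called higher and 0 lower, the level was 27470 to 37340 CPM after SCI, against 6438 to 12880 CPM in uninjured mice. Over 6 markers of oligodendrocyte progenitors (2 higher, 0 lower), it was 2085 to 2674 CPM after SCI, against 1744 to 1836 CPM. The 2 were Sox10, at a mean of 477 CPM against 131 CPM, and Gpr17, at 492 CPM against 180 CPM. Pdgfra, Cspg4, Olig1 and Olig2 were not called. Over the 4 monocyte and macrophage markers listed of 9 (2 higher, 0 lower), it was 102 to 520 CPM after SCI, against 13.5 to 83.8 CPM. For these 3 lists every SCI library stood above every uninjured one.

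Fibroblast markers (2 of 6 higher, 0 lower) summed to 495 to 827 CPM after SCI, against 204 to 269 CPM in uninjured mice. Schwann cell markers (2 of 6 higher, 0 lower) summed to 2007 to 3791 CPM, against 1109 to 1794 CPM. Microglial markers (0 called of 5 listed of 8) summed to 241 to 539 CPM, against 138 to 449 CPM. Aif1 of the macrophage list, Lum of the fibroblast list and Dcx of the neural progenitor list had 0 counts in every uninjured library, and each was called higher after SCI. They were listed only through the SCI libraries, so these calls describe the listing.

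Pericyte markers (2 higher, 0 lower of 3 listed of 6) summed to 23.8 to 64.5 CPM after SCI, against 18.03 to 83.1 CPM, and neural progenitor markers (1 of 6 higher) to 216 to 358 CPM, against 291 to 501 CPM. Endothelial markers (1 higher, 0 lower of 2 listed of 7) summed to at most 20.5 CPM after SCI, against at most 13.8 CPM. The pericyte and endothelial genes called, Kcnj8, Acta2 and Cdh5, had 1 or 2 counts over the uninjured libraries. They too were listed only through the SCI libraries. Neuronal markers (0 called of 7 listed of 8) summed to 303 to 378 CPM after SCI, against 229 to 330 CPM, and ependymal markers (0 called of 2 listed of 6) to 135 to 233 CPM, against 19.7 to 151 CPM. The 10 astrocyte markers summed to 34230 to 46850 CPM after SCI, against 48040 to 49930 CPM, with Gfap called higher and 5 genes lower. No marker of neutrophils, T cells or B cells is listed, nor are the defining genes Tmem119, P2ry12, Adgre1 and Ptprc. The part of other cells in the rise of the mitotic genes was not tested.

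The Smarca4cKO LPS libraries can be compared with SCI for 9 members, all of G1 and replication. In 1 fit of the 3 Smarca4cKO groups, Ccnd1 was higher after SCI than after LPS, by a log2 of 2.10 ± 0.35 (SE, edgeR adjusted p = 0.00869), against 1.41% of all genes called higher and 2.37% lower. The other 8 members did not pass, with adjusted p from 0.486 to 0.998. Both challenges were set against the same 3 uninjured libraries. Within the LPS table, 0 of the 9 members passed the test against uninjured, with edgeR and with DESeq2 alike, and 0 had an unadjusted p under 0.05. Of all genes, 0.0249% were called.

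Ccnd1 had 3521, 6784 and 5203 counts in libraries labelled Smarca4cKO LPS, against 3932, 2790 and 1489 in uninjured libraries. It averaged 68.0 ± 23.8 CPM and 34.6 ± 14.1 CPM (SD, n = 3 each; log2 change 0.97 ± 0.71, edgeR adjusted p = 0.998), and the groups did not overlap in CPM. Ccnd1 was the 1 member of 9 above uninjured without overlap, against 8.84% of all genes, and Mcm3 the 1 below, against 8.27%. Ccnd2 averaged 101 ± 71.7 CPM in the LPS libraries and 131 ± 22.6 CPM in the uninjured ones, with library 2 labelled LPS at 18.9 CPM and LPS libraries 1 and 3 at 153 and 130 CPM. Cdk4 averaged 70.7 ± 44.4 CPM after LPS and 56.0 ± 43.7 CPM uninjured. Pcna averaged 39.2 ± 10.5 CPM after LPS and 19.8 ± 16.9 CPM uninjured. Cdkn1b averaged 90.9 ± 11.8 CPM after LPS and 113 ± 45.3 CPM uninjured. The groups overlapped for each of these 4 genes. Mcm3, with 1051, 2 and 1356 counts after LPS, and Rrm1, with 1, 2410 and 1505 counts, were near 0 in 1 LPS library each.

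In Stat3cKO astrocytes 24 hours after LPS, 2 of 19 listed members were higher than in uninjured Stat3cKO mice and 0 were lower, against 7.12% and 3.44% of all genes. The authors' deposited table gives the same 2. Ccnd3 (chr17:47505051-47599691, plus strand) had 11325, 19442, 18867 and 17444 counts in the libraries labelled Stat3cKO LPS, against 8318, 5988 and 12375 in uninjured libraries. It averaged 225 ± 31.8 CPM after LPS (SD, n = 4) and 106.8 ± 22.6 CPM uninjured (SD, n = 3), a log2 change of 1.08 ± 0.20 (SE, edgeR adjusted p = 0.00685). In CPM, all LPS libraries stood above all uninjured ones.

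Cdkn1b had 7642, 11357, 11202 and 9613 counts in the libraries labelled Stat3cKO LPS, against 8609, 4488 and 5876 in uninjured libraries. It averaged 135 ± 15.02 CPM after LPS (SD, n = 4) and 77.6 ± 23.2 CPM uninjured (SD, n = 3), a log2 change of 0.79 ± 0.22 (SE, edgeR adjusted p = 0.0451). The groups did not overlap in CPM, and the call was lost without LPS library 1, 2 or 3 or uninjured library 2 or 3, at adjusted p from 0.0671 to 0.160. A cyclin that promotes the cycle and an inhibitor that restrains it were thus both called higher. Groups stood apart on the higher side for 3 members, Ccnd3, Cdkn1b and Pcna, against 14.6% of all genes, and on the lower side for 2, Cdk4 and Prc1, against 12.7%.

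Markers of other cells were measured in the same libraries. Of all genes, 7.12% were called higher and 3.44% lower. Oligodendrocyte markers (2 of 8 higher, 0 lower) summed to 8505 to 11210 CPM in the libraries labelled Stat3cKO LPS, against 4919 to 6439 CPM uninjured, and neuronal markers (3 of 8 higher, 0 lower) to 420 to 659 CPM, against 223 to 285 CPM. Markers of oligodendrocyte progenitors (1 of 6 lower) summed to 1031 to 1325 CPM after LPS, against 1595 to 1732 CPM, and fibroblast markers (1 lower of 5 listed) to 144 to 164 CPM, against 214 to 269 CPM. These 4 sums did not overlap between the groups.

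Monocyte and macrophage markers (1 higher of 4 listed of 9) summed to 19.6 to 53.9 CPM after LPS, against 0.0605 to 6.81 CPM, and neural progenitor markers (1 higher of 5 listed) to 285 to 364 CPM, against 270 to 344 CPM. The macrophage gene called, Cd68, had 4 counts over the uninjured libraries and was listed only through the LPS libraries. Microglial markers (1 higher and 1 lower of 4 listed of 8) summed to 127 to 151 CPM after LPS, against 136 to 178 CPM. The 10 astrocyte markers (2 higher, 2 lower) summed to 40100 to 44490 CPM after LPS, against 43560 to 44200 CPM. Tmem119, P2ry12, Adgre1 and Ptprc are not listed, and no gene passed in the Schwann cell, ependymal, endothelial or pericyte lists. The part of other cells in the Ccnd3 and Cdkn1b results was not tested.

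Pcna averaged 42.2 ± 4.98 CPM after LPS and 23.3 ± 5.00 CPM uninjured, without overlap, at a log2 change of 0.86 ± 0.27 that missed the threshold (adjusted p = 0.0699). Cdk4 averaged 36.0 ± 6.36 CPM after LPS and 55.1 ± 15.5 CPM uninjured (adjusted p = 0.183). Ccnd1 averaged 46.0 ± 13.6 CPM after LPS and 52.5 ± 8.01 CPM uninjured (adjusted p = 0.736), and Ccnd2 averaged 83.9 ± 30.1 CPM after LPS and 96.9 ± 11.3 CPM uninjured (adjusted p = 0.703). Cdk2, the kinase that cyclin E activates for S phase, had 200, 153, 57 and 0 counts after LPS, against 401, 302 and 148 uninjured (adjusted p = 0.715).

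Reads of Prc1 and Aurka were scarce in most libraries labelled Stat3cKO LPS. Prc1 had 0, 0, 0 and 74 counts there, against 402, 197 and 167 in uninjured libraries, and Aurka had 0, 0, 273 and 1 counts, against 221, 202 and 138. Neither passed (adjusted p = 0.350 and 0.755), and in each 1 LPS library differed from the rest: without LPS library 4 the adjusted p of Prc1 was 0.0284, and without LPS library 3 that of Aurka was 0.0375. Those values come from leaving out the LPS library that held the reads, and add no support. Tpx2 was read in every library, at 628 to 1243 counts after LPS and 460 to 1009 uninjured.

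In WT astrocytes after LPS, 0 of 14 listed members were higher and 1 was lower than in uninjured WT mice, against 1.54% and 0.994% of all genes. The 1 was Ccnd2 (chr6:127125162-127152193, minus strand), also the 1 lower member in the authors' deposited table. It had 4694, 3571, 5188 and 12124 counts after LPS, against 11029, 13325, 7519 and 11629 in uninjured libraries. It averaged 71.1 ± 22.8 CPM after LPS and 157 ± 25.3 CPM uninjured (SD over 4 libraries each), and the log2 change was -1.14 ± 0.26 (SE, edgeR adjusted p = 0.0419). The highest LPS library, at 101 CPM, stayed under the lowest uninjured one, at 140 CPM. The call is at the edge of the threshold and was lost when any 1 library other than LPS library 4 was left out, with adjusted p up to 0.118.

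The WT share of genes called varied with single libraries: 268 genes passed in all, and 29 without LPS library 2, 58 without uninjured library 3 and 68 without uninjured library 4. Of the markers, Aqp4 and Gja1 of the 10 astrocyte genes were lower, with sums of 46930 to 59860 CPM after LPS, against 52640 to 64190 CPM. Col1a1, of 5 fibroblast genes listed, was lower, with sums of 175 to 200.2 CPM after LPS, against 216 to 371 CPM. Cd14, of 2 macrophage genes listed, was higher, with sums of 5.92 to 21.8 CPM after LPS, against 2.77 to 4.77 CPM. Cd14 had 2 counts over the uninjured libraries, so it was listed only through the LPS libraries. No gene passed in the other marker lists. Of all genes, 1.54% were called higher and 0.994% lower. The part of other cells in the Ccnd2 result was not tested.

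The other G1 genes of WT mice did not pass. Ccnd1 averaged 44.9 ± 11.8 CPM after LPS and 51.3 ± 28.4 CPM uninjured, and Ccnd3 averaged 105 ± 20.5 CPM after LPS and 104 ± 17.7 CPM uninjured. Cdk4 averaged 63.2 ± 25.6 CPM after LPS and 83.5 ± 34.5 CPM uninjured, and Cdkn1b averaged 90.5 ± 17.1 CPM after LPS and 97.2 ± 12.5 CPM uninjured. For each of these 4 genes the groups overlapped. Cdk2 had 250, 444, 284 and 417 counts after LPS, against 0, 328, 225 and 261 uninjured, and Ccne1, its cyclin partner, 73, 187, 80 and 7 counts, against 628, 647, 0 and 185. Pcna averaged 33.6 ± 5.26 CPM after LPS and 40.3 ± 12.4 CPM uninjured. Rrm1 was lower in every LPS library than in any uninjured one, at 23.3 ± 1.76 CPM after LPS and 31.7 ± 5.88 CPM uninjured, but did not pass (adjusted p = 0.655). Groups separated on the lower side for 2 members, Rrm1 and Ccnd2, against 5.5% of all genes, and on the higher side for 0, against 5.72%.

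**Figure D4:**
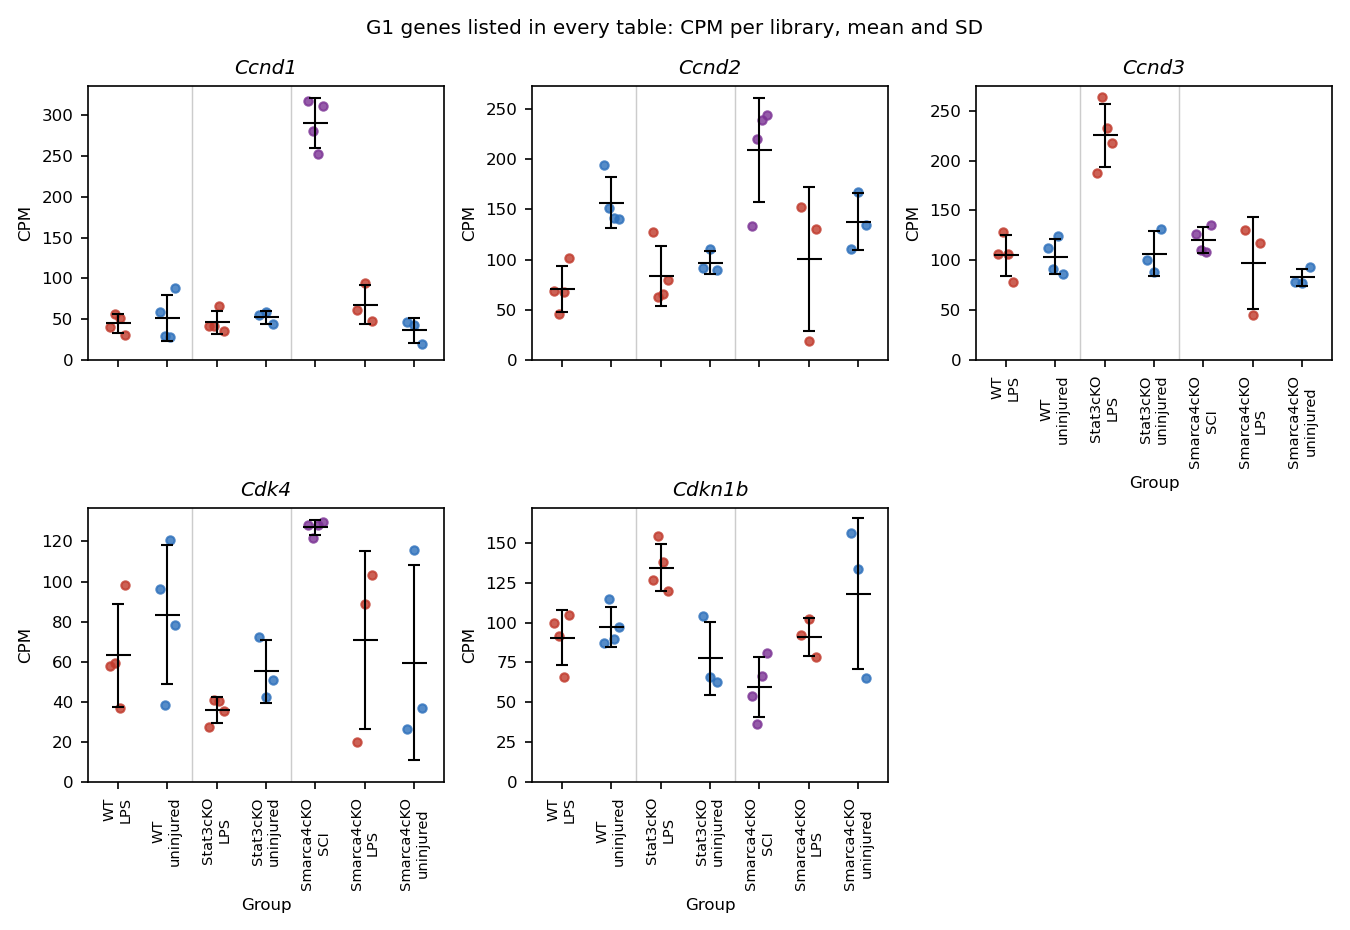
CPM of 5 G1 genes per library in the 7 groups, with mean and SD as black bars; purple is SCI, red LPS and blue uninjured, and CPM were scaled within each table. Cyclin D1 is highest after SCI, cyclin D3 in the libraries labelled Stat3cKO LPS, and cyclin D2 is lower after LPS than uninjured in WT.

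Of the other cell cycle lists under LPS, Cdkn1a, which encodes the inhibitor p21, rose in WT to 824 ± 847 CPM, against 136 ± 55.5 CPM uninjured (SD, n = 4 each; log2 change 2.60 ± 0.55, edgeR adjusted p = 0.0327). In the libraries labelled Stat3cKO LPS it rose to 1969 ± 739 CPM (SD, n = 4), against 159 ± 62.8 CPM uninjured (SD, n = 3; log2 change 3.63 ± 0.39, edgeR adjusted p = 0.000272). Btg2, an antiproliferative gene, rose there to 19.4 ± 5.21 CPM, against 5.11 ± 1.83 CPM uninjured. Brip1, a DNA repair helicase, was at least 488-fold higher there, with 0 counts uninjured, so it was listed only through the LPS libraries. No gene of the 3 lists fell in either genotype, and none passed in Smarca4cKO after LPS with edgeR, where 2 regulators had an unadjusted p under 0.05.

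Between genotypes, 0 members passed the test of a different LPS response. For Stat3cKO against WT, 13 members were tested and 4 had an unadjusted p under 0.05. The Stat3cKO response exceeded the WT response by a log2 of 1.03 ± 0.30 for Ccnd3, 0.87 ± 0.31 for Cdkn1b, 1.10 ± 0.41 for Pcna and 0.90 ± 0.38 for Ccnd2, with edgeR adjusted p of 0.175, 0.317, 0.365 and 0.439. Of all genes, 0.377% were called, and DESeq2 called 1 member, Ccnd3. The LPS responses of Ccnd2 in WT and of Ccnd3 and Cdkn1b in Stat3cKO are therefore not shown to differ from those of the other genotype by this test. For Smarca4cKO against WT, 9 members were tested, 0 had an unadjusted p under 0.05, and 0.316% of all genes were called.

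Uninjured mice of the genotypes did not differ past the threshold in any member tested. In Stat3cKO against WT, Ccnd2 and Pcna were lower by a log2 of -0.66 ± 0.19 and -0.76 ± 0.34 at unadjusted p under 0.05, with edgeR adjusted p of 0.548 and 0.733. In Smarca4cKO against WT, Mcm3 was higher by a log2 of 2.75 ± 1.11, at an edgeR adjusted p of 0.429. DESeq2 placed that difference past the threshold, at an adjusted p of 0.0390. Of all genes, 0.0777% were called in the first comparison and 0.0102% in the second.

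Exons of 14 members overlap those of another gene in GENCODE M21, among them Ccnd1, Ccnd3, Cdk4, Cdc20, Nusap1, Plk1, Prc1, Top2a and Ube2c. The strand used in counting is not given in the sources used here, so reads of overlapping genes cannot be told apart from the members' own.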

How the data were processed

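RNA bound to tagged astrocyte ribosomes was sequenced, with 1 library per mouse by title, so p-values measure the spread between these samples. The authors deposited 4 tables, each with raw counts per gene for 1 challenge and its uninjured controls, their log2 fold changes and their FDR (adjusted p-values), per the file headers. Tools listed without a role, per the submitters' processing notes, were HTSeq 0.6.0, STAR 2.4.0j and edgeR 3.28.0, and the build was mm10. The authors' rule for listing a gene is not given in the sources used here, nor is the strand of counting. In the tables, 56 other per-sample columns were not used.

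Each comparison was fitted on the deposited counts in R 4.3.3 with edgeR 4.0.16 (limma 3.58.1): TMM scaling, filterByExpr, a quasi-likelihood test and Benjamini-Hochberg adjustment over all genes tested, with a threshold of 0.05. The SE is the log2 change divided by the root of F. CPM were scaled within a table, and comparisons between genotypes used raw counts of genes in both tables. With 0 counts in uninjured libraries, fold bounds were set against 3 counts over the group. Bounds and 95% intervals cover counting error only, as the reads carry no molecular identifiers. DESeq2 1.42.0, other scalings and filters, joint fits and leaving out each library were alternatives. The tests were run on simulated data too. The changes simulated were set in expressed genes and not as silence of a whole group, so that check does not cover the silent genes. Promoter windows are RefSeq's, from GRCm38.p6, and exon lengths and overlaps are from GENCODE M21 (GRCm38).

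The members, their roles and the other gene lists were chosen with earlier results of these data known. Every member called in any comparison was named, as were Top2a, Cdk1, Mki67, Ccnd1, Ccnd2, Cdk2, Cdk4, Cdk6, Pcna and Cdkn1b. Of the other cell cycle lists the 3 largest called changes per direction were named, and of the marker lists the summed level and the members at 0.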

Additional observations from a re-analysis of the deposited data

Results flagged for a closer look

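Of 78 pairs of a gene and a group of 4 libraries, 5 held 1 library far from the other 3 by Dixon's test (6.41%). Chance flags about 1 in 20 where values are independent and normally distributed. These pairs share libraries and some hold values at 0, so that rate is a rough guide. Ccnb2 stood at 13.9 CPM in SCI library 1 of Smarca4cKO mice, with the other SCI libraries at 2.26 to 2.96 CPM. Aurka stood at 3.36 CPM in library 3 labelled Stat3cKO LPS, with the others of that group at 0 to 0.0125 CPM. Prc1 stood at 0.922 CPM and Tyms at 1.545 CPM in library 4 labelled Stat3cKO LPS, with both genes at 0 in the other LPS libraries of that genotype. Cdk2 stood at 5.72 CPM in WT LPS library 2, with the other WT LPS libraries at 3.49 to 3.72 CPM.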

How the results depend on the processing

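No paired analysis was possible because replicates carry mouse numbers that no label pairs across groups. Of 121 alternative counts of members called in the 9 comparisons, 106 were within 1.5 times the reported count. For Smarca4cKO SCI, keeping genes with over 10 counts in every library left 8 members to test and 2 calls (Ccnd1 higher, Mcm3 lower), since the silent genes cannot pass that filter. A fit of the 3 Smarca4cKO groups tested 9 members and called 1, Ccnd1. DESeq2 called 18 members after SCI, adding Ccnd3, Cdkn1b and Mcm3. DESeq2 called 1 member for the Stat3cKO minus WT response (Ccnd3, of 5 it tested) and 1 for uninjured Smarca4cKO against WT (Mcm3), where edgeR called 0.

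With 1 library left out, members called ranged from 15 to 18 for SCI, with all 15 kept, from 1 to 3 for Stat3cKO LPS, from 0 to 1 for WT LPS, and were 1 for SCI minus LPS and 0 elsewhere. Of 647 alternative log2 changes of single genes, 5 turned sign, all among uncalled genes and with 1 library left out: the range was -0.81 to 0.11 for Ccnd2 and -0.04 to 1.19 for Cdk4 in Smarca4cKO LPS, and -0.39 to 0.20 for Ccnd1 and -0.17 to 0.02 for Cdkn1b in WT LPS. Of the rest, 12 lost and 16 gained a call.

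Over all genes, calls moved more. WT LPS had 268, against 615 with DESeq2 and 517 in a joint fit. Stat3cKO LPS had 1237, against 702 in a joint fit. Smarca4cKO LPS had 2, against 22 with over 10 counts in every library, 296 with DESeq2 and 132 in a joint fit. Smarca4cKO SCI had 1606, against 777 with over 10 counts in every library and 373 in the joint fit. SCI minus LPS had 301, against 719 with DESeq2. The response differences had 39 (Stat3cKO) and 25 (Smarca4cKO), against 163 and 100 with DESeq2, and 0 for Smarca4cKO with over 10 counts in every library. The uninjured differences had 8 (Stat3cKO) and 1 (Smarca4cKO), against 82 and 641 with DESeq2 and 15 and 23 with over 10 counts in every library. With 1 library left out, the counts ran from 29 to 217 for WT LPS, from 657 to 1275 for Stat3cKO LPS, from 2 to 5 for Smarca4cKO LPS, from 1293 to 2266 for SCI, from 159 to 763 for SCI minus LPS, from 14 to 119 and 14 to 367 for the Stat3cKO and Smarca4cKO response differences, and from 1 to 13 and 0 to 5 for the uninjured differences. The highest values for SCI minus LPS and the Smarca4cKO response were without library 3 labelled Smarca4cKO LPS. The cause was not tested.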
